A study of Homo sapiens with 6 samples.

Results

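The genes described here are the semaphorins and their main receptors, the plexins and neuropilins. They were taken from the deposited gene tables by symbol and by their protein-coding label, which gave 31 of 20049 protein-coding genes. That rule used no measured value, but the family was chosen with earlier results of these data known. Of these, 20 encode ligands of classes 3 to 7 (7 in class 3, 6 in class 4, 2 in class 5, 4 in class 6 and 1 in class 7), and 11 encode receptors, namely 9 plexins and 2 neuropilins. RNA sequencing was done in LX-2 cells, a permanent human line made from hepatic stellate cells and labelled mesenchymal. In 3 samples the cells were transfected with an siRNA against PERK, the endoplasmic reticulum stress kinase encoded by EIF2AK3, and in 3 samples with a control siRNA. All 6 samples were given palmitic acid, a saturated fatty acid, and collected 24 h later. Cells that received no palmitic acid were not analysed here, and each difference therefore compares siRNAs under lipid treatment. Whether replicates are separate cultures is not in the labels, and the p-values thus cover the spread among these 6 samples alone, which may be technical.

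Semaphorins are secreted, transmembrane or membrane-anchored proteins that steer growing axons, migrating cells and new vessels, mostly by collapsing the leading edge of the cell that receives them. Plexins are the signalling receptors: their cytoplasmic part switches off Ras-family GTPases and reshapes the actin cytoskeleton. Most secreted class 3 semaphorins need a neuropilin, which binds the ligand and pairs with an A-type plexin, and neuropilins also bind VEGF. Stellate cells, the matrix-producing cells of the injured liver, migrate and contract, and neuropilin 1 is known to aid PDGF signalling in them.

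Depth was 17937141 to 19535253 exon reads in PERK siRNA samples and 18560051 to 19585872 in control siRNA samples, and 94.9 to 95.0% of reads per sample were placed uniquely. A floor of 3 reads corresponded to 0.153 to 0.167 CPM (a read count scaled to the library total), which covers counting error only. EIF2AK3 stood at 2.29, 2.63 and 2.90 TPM (reads per exon length, scaled to a constant total) in PERK siRNA samples, against 6.82, 6.92 and 7.28 TPM in control siRNA samples (log2 fold change -1.42, SE 0.10, adjusted p = 3.0e-13 by edgeR's quasi-likelihood test). Of 15 mesenchymal and stellate markers, 10 were tested, 5 rose and 3 fell, where 34.4% of all tested genes rose and 35.0% fell. The summed level of these markers was 6836 to 6842 TPM with PERK siRNA and 6227 to 6352 TPM with control siRNA. VIM, which carries most of that difference, averaged 3202 TPM with PERK siRNA and 2700 TPM with control siRNA. ACTA2 (log2 fold change 1.95) and COL1A2 (18.6 TPM with PERK siRNA and 8.12 TPM with control siRNA) rose. SPARC (1203 TPM with PERK siRNA and 1084 TPM with control siRNA) and THY1 (3.05 and 2.26 TPM) also rose. COL1A1, far more abundant than COL1A2, was not called (1659 TPM with PERK siRNA and 1649 TPM with control siRNA), nor was TIMP1 (540 and 551 TPM). COL3A1 (log2 fold change -0.89), PDGFRA (-1.41) and PDGFRB (-0.17) fell, and LUM, DCN, DES, LRAT and GFAP were too low to be tested. Of 8 hepatocyte markers, 6 had no reads, ALB among them. Summed markers of 4 other cell types were lower in every PERK siRNA sample, but a few genes carried each sum.

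The 8 endothelial markers summed to 8.43 to 9.86 TPM with PERK siRNA and 13.8 to 15.0 TPM with control siRNA. Of these, PECAM1 fell (0.313 TPM with PERK siRNA and 4.44 TPM with control siRNA), TIE1 was not called (8.40 TPM with PERK siRNA and 9.35 TPM with control siRNA), and CLEC4G and EMCN had no reads. The 6 cholangiocyte and epithelial markers summed to 85.6 to 94.9 TPM with PERK siRNA and 130.6 to 138.4 TPM with control siRNA. Most of it was SOX9, which fell (74.8 TPM with PERK siRNA and 109.3 TPM with control siRNA), as did KRT7 (13.9 TPM with PERK siRNA and 24.6 TPM with control siRNA), while CDH1 and CFTR had no reads. The 8 macrophage and leukocyte markers summed to 119.8 to 123.3 TPM with PERK siRNA and 131.8 to 139.0 TPM with control siRNA. Most of it was CD68, which was not called (105.8 TPM with PERK siRNA and 110.2 TPM with control siRNA). CD14 (15.0 TPM with PERK siRNA and 21.0 TPM with control siRNA) and CSF1R (0.465 TPM with PERK siRNA and 4.20 TPM with control siRNA) fell, and MARCO, CD163 and CD3E had no reads. The 8 neuron and Schwann cell markers summed to 106.8 to 115.6 TPM with PERK siRNA and 132.0 to 138.6 TPM with control siRNA. Most of it was TUBB3, with 2.46% of its reads unique, which fell (104.3 TPM with PERK siRNA and 121.0 TPM with control siRNA). These marker genes were named after their values were seen, and their part in the results below was not tested.

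PERK siRNA samples held less semaphorin mRNA, while their receptor mRNA was closer to that of control siRNA samples. Summed over all 20 ligands, the level was 271.3, 275.7 and 275.6 TPM in PERK siRNA samples and 433.6, 447.9 and 416.8 TPM in control siRNA samples, so that 63.4% of the control level remained. Summed over the 11 receptors, it was 384.2, 377.7 and 389.3 TPM with PERK siRNA and 421.5, 438.8 and 411.7 TPM with control siRNA, or 90.5% of control. Neither sum overlapped between the groups. The ligands made up 41.4 to 42.2% of the family's TPM in PERK siRNA samples and 50.3 to 50.7% in control siRNA samples. In bulk RNA, fewer cells of a type and less RNA per cell cannot be told apart.

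**Figure D1:**
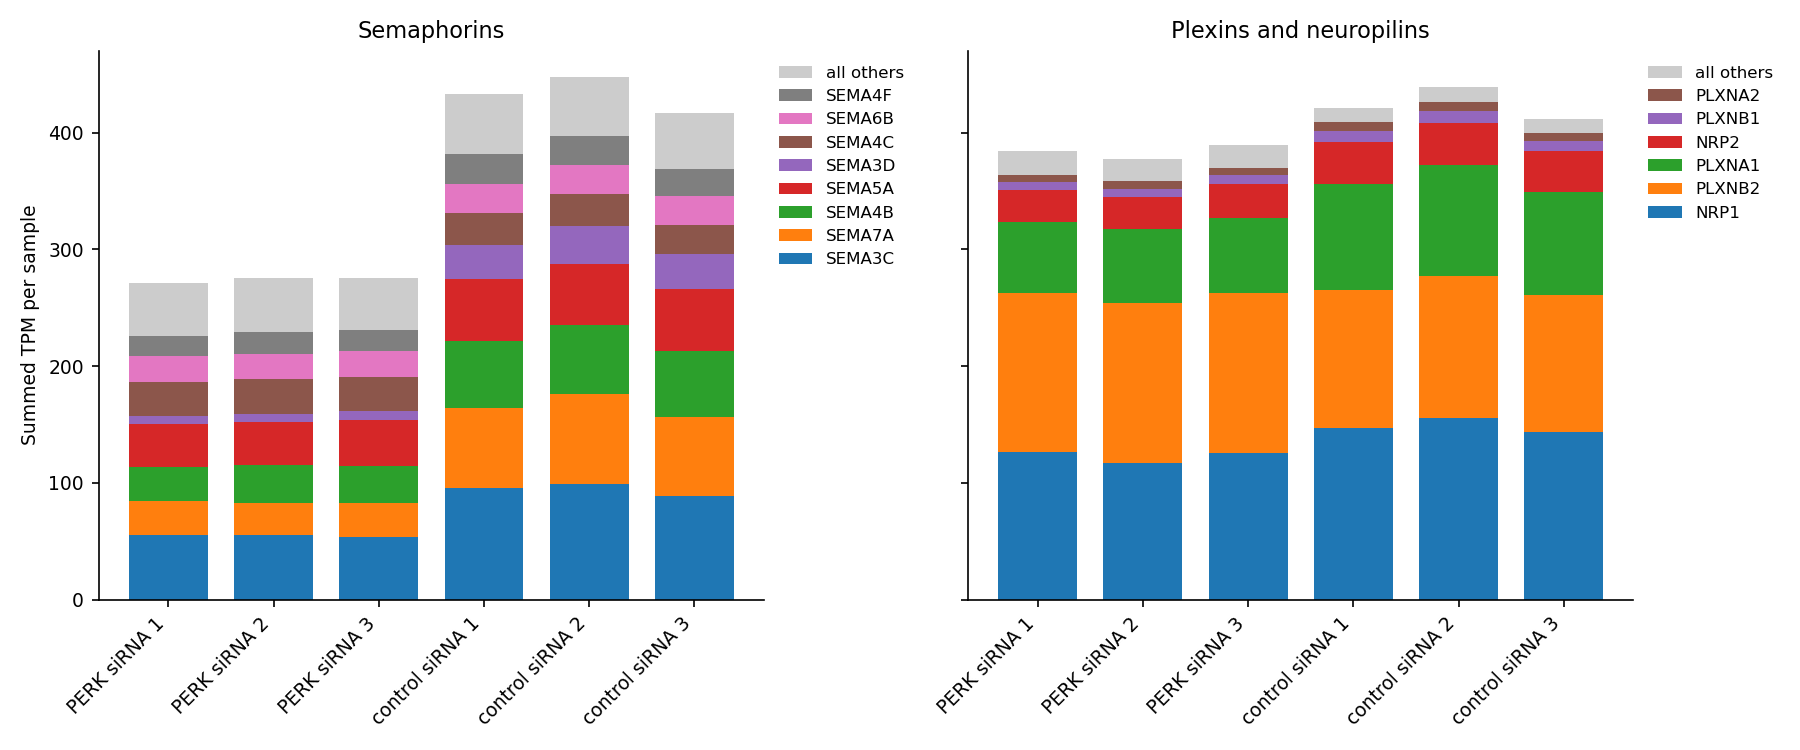
Summed TPM per sample (y axis) of semaphorins (left) and of plexins and neuropilins (right), in 3 PERK siRNA and 3 control siRNA samples (x axis), stacked by gene with the most abundant genes in colour and the others in grey. The ligand columns of PERK siRNA samples end between 271.3 and 275.7 TPM, below the 416.8 to 447.9 TPM of control siRNA samples, while the receptor columns lie closer together.

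Most of the lower ligand sum lay in 5 genes. The 20 ligands differed by a summed -158.6 TPM between the group means, made up of decreases of -166.0 TPM and increases of 7.41 TPM. SEMA7A (-41.9 TPM), SEMA3C (-40.1 TPM), SEMA4B (-26.9 TPM), SEMA3D (-23.5 TPM) and SEMA5A (-15.1 TPM) accounted for -147.5 TPM of it. The receptors differed by a summed -40.3 TPM, with decreases of -65.5 TPM, led by PLXNA1 (-28.3 TPM), NRP1 (-25.6 TPM) and NRP2 (-7.73 TPM), and increases of 25.2 TPM, of which PLXNB2 gave 17.5 TPM.

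Of the 31 genes, 28 had enough reads to be tested. With edgeR and a threshold of 0.05 on the adjusted p over 12973 genes, 8 of the 28 rose and 15 fell, 82.1% in either direction, where 69.5% of all tested genes were called. The count includes SEMA4A, a ligand that reached the filter only through the PERK siRNA samples, and without the filter 7 members rose, 2 of them ligands. The share that rose was 28.6%, against 34.4% of all genes, and the share that fell was 53.6%, against 35.0%. By role, of 17 tested ligands 3 rose (SEMA4A included), 9 fell and 5 did not pass, with a median log2 fold change of -0.16, and of 11 receptors 5 rose and 6 fell, with a median of -0.19. The median over all tested genes was 0.0038. Changes of at least 2-fold that also passed the test were found in 5 of the 28 genes, beside 7.91% of all genes: PLXND1 and PLXNB3 rose (4.07% of all genes did so at this size), and SEMA3D, SEMA7A and SEMA3A fell (3.84%). The 3 values of each group did not overlap for 24 of the 28 genes, with 9 higher and 15 lower in every PERK siRNA sample, where 71.8% of all genes did not overlap. SEMA4A is among the 24 and the 9, but the way it passed the filter fixed that its groups would not overlap.

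**Figure D2:**
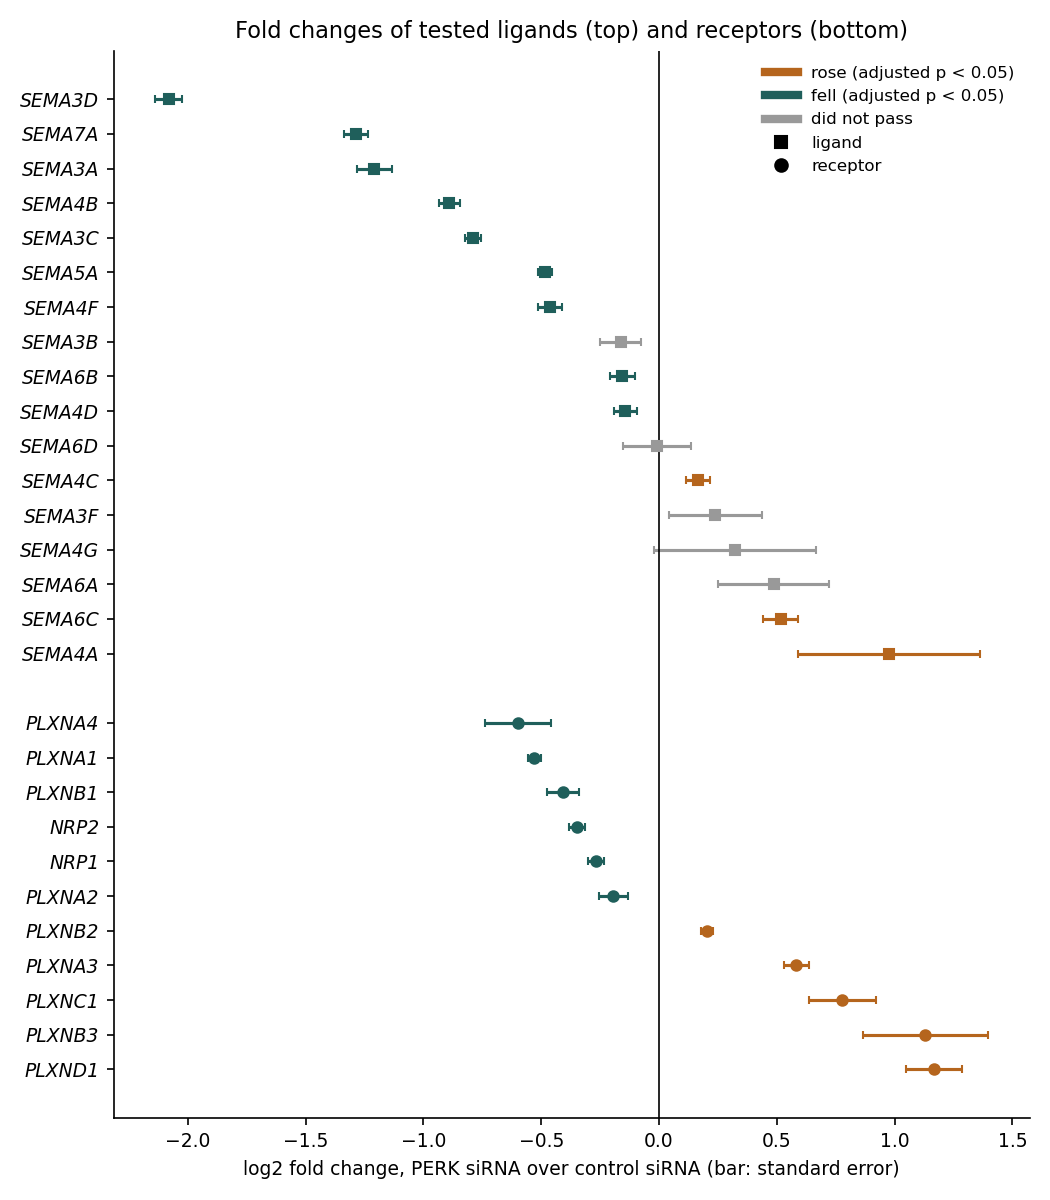
Log2 fold change of PERK siRNA over control siRNA (x axis) for the 17 tested ligands (top, squares) and 11 receptors (bottom, circles), with bars for the standard error and colour for the call at an adjusted p of 0.05. Ligands spread from -2.08 for SEMA3D to 0.97 for SEMA4A, and receptors from -0.60 for PLXNA4 to 1.17 for PLXND1.

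The class 3 semaphorins are secreted. SEMA3D, which acts through neuropilins, had the largest fall in the family. SEMA3D (ENSG00000153993; chromosome 7, 84995553 to 85186855, minus strand, GRCh38) stood at 7.38, 6.62 and 7.68 TPM in PERK siRNA samples and at 29.6, 32.3 and 30.3 TPM in control siRNA samples. Every PERK siRNA sample was far below every control siRNA sample. The means were 7.23 ± 0.543 and 30.7 ± 1.43 TPM (SD, n = 3 each), and the log2 fold change was -2.08 (SE 0.06, adjusted p = 2.5e-23 by edgeR), a level 4.23-fold lower. By mean TPM, SEMA3D was ligand number 11 with PERK siRNA and number 5 with control siRNA.

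SEMA3C, which binds both neuropilins, was the most abundant semaphorin in both groups. SEMA3C (ENSG00000075223; chromosome 7, 80742538 to 80922359, minus strand) stood at 55.0, 55.1 and 53.3 TPM with PERK siRNA and at 95.4, 99.4 and 89.0 TPM with control siRNA. It fell by 0.79 on the log2 scale (SE 0.03, adjusted p = 3.1e-18 by edgeR), with no overlap between the groups. SEMA3A, the classic collapsing factor of axonal growth cones, which signals through neuropilin 1 and A-type plexins, was less abundant. SEMA3A (ENSG00000075213; chromosome 7, 83955777 to 84492724, minus strand) stood at 4.21, 4.74 and 4.87 TPM with PERK siRNA and at 11.0, 11.5 and 9.63 TPM with control siRNA. It fell 2.31-fold (log2 fold change -1.21, SE 0.07, adjusted p = 1.2e-14 by edgeR). Its highest PERK siRNA value was below its lowest control siRNA value.

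The other class 3 genes were not called. SEMA3B stood at 11.6, 10.8 and 11.2 TPM with PERK siRNA and at 13.8, 11.3 and 12.6 TPM with control siRNA, with overlapping groups (log2 fold change -0.16, SE 0.09, adjusted p = 0.099 by edgeR). SEMA3F, a ligand of neuropilin 2, stood at 1.70, 2.81 and 2.19 TPM with PERK siRNA and at 1.67, 2.25 and 1.81 TPM with control siRNA (log2 fold change 0.24, SE 0.20, adjusted p = 0.28). SEMA3E, which binds plexin D1 without a neuropilin, had 7, 5 and 3 reads in PERK siRNA samples and 5, 10 and 7 reads in control siRNA samples, and was too low to be tested. SEMA3G had a single read, in control siRNA sample 3, and was not tested. The 3 class 3 genes that fell lie on chromosome 7, all on the minus strand. SEMA3E, SEMA3A and SEMA3D are consecutive protein-coding genes there in the annotation, and SEMA3C lies nearer the start of the chromosome. The 2 tested class 3 genes that did not pass, SEMA3F (50155045 to 50189075) and SEMA3B (50267558 to 50277546), lie on chromosome 3, as does SEMA3G. Summed over the class, the level was 79.3 to 80.2 TPM with PERK siRNA and 143.6 to 157.0 TPM with control siRNA.

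SEMA7A is anchored to the membrane by a lipid and binds plexin C1 and β1 integrins. SEMA7A (ENSG00000138623; chromosome 15, 74409289 to 74433958, minus strand) stood at 29.7, 27.6 and 29.4 TPM in PERK siRNA samples and at 68.5, 76.6 and 67.2 TPM in control siRNA samples. The means were 28.9 ± 1.18 and 70.8 ± 5.12 TPM (SD, n = 3 each), with no overlap. It fell 2.44-fold (log2 fold change -1.28, SE 0.05, adjusted p = 1.1e-18 by edgeR), and was ligand number 5 by mean TPM with PERK siRNA and number 2 with control siRNA. Its receptor PLXNC1 moved the other way, at 2.44, 2.21 and 2.65 TPM with PERK siRNA and 1.41, 1.70 and 1.17 TPM with control siRNA. PLXNC1 rose 1.72-fold (log2 fold change 0.78, SE 0.14, adjusted p = 1.9e-05 by edgeR), with 55 to 124 reads per sample.

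Upstream sequences of SEMA3D and SEMA7A, the largest falls in the family, and of SEMA3C, the most abundant semaphorin, are shown from the RefSeq promoter table (GRCh38.p14). That of PLXND1, the receptor with the largest rise, is shown too. Each runs 5′ to 3′ on the minus strand and ends before the annotated first exon, with 250 bases each, or 108 for PLXND1. The PLXND1 window was cut at the edge of its annotated gene (129606818) and lacks the bases nearest its RefSeq start. The SEMA3D window ends at 85187057, some way upstream of its annotated gene (85186855). The windows thus lie at unlike places relative to their genes, and their words and base content cannot be compared directly. Capitals mark a match to a searched word. The places are chr7:85187057-85187306 for SEMA3D, chr15:74433959-74434208 for SEMA7A, chr7:80922390-80922639 for SEMA3C and chr3:129606819-129606926 for PLXND1.
SEMA3D: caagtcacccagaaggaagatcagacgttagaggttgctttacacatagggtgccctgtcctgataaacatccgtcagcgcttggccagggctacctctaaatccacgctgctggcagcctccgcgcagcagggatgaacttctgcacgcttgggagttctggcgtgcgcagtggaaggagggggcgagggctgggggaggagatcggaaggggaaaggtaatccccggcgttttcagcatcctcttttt
SEMA7A: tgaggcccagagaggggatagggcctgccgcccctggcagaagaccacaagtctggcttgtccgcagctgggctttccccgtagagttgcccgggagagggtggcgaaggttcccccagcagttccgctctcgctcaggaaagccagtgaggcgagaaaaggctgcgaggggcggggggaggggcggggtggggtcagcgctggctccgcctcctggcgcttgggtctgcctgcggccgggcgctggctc
SEMA3C: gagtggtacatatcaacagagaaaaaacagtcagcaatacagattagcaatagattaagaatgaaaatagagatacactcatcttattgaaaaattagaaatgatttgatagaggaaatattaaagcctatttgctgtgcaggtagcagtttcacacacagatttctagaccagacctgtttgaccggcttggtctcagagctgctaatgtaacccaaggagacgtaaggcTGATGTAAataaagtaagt
PLXND1: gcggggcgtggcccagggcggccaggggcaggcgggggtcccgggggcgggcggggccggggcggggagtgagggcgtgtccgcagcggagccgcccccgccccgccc
The G and C content was 57.6% for SEMA3D, 70.0% for SEMA7A, 36.4% for SEMA3C and 88.9% for PLXND1. The words searched on both strands were the ATF4/CHOP-type words TGATGNAA and TGANGCAA, the hypoxia core ACGTG and the κB consensus. The SEMA3C window held TGATGTAA once, and the other windows shown held none of the 4. Each window comes from the first entry of its gene, and some genes have several entries. Another SEMA7A entry held ACGTG at position -194 from its start. In the promoter table, with 250 bases before and 50 after each start, 27 of the 31 genes had 48 entries, and NRP1, SEMA3A, SEMA6A and SEMA6B had no entry. TGATGNAA was found in 2 of the 48, those of SEMA3C and SEMA4A (4.17%), against 3.62% of all 35116 entries. TGANGCAA was found in 0 of the 48, against 3.22% of all. ACGTG was found in 10 (20.8%), against 21.4% of all, and the κB consensus in 7 (14.6%), against 11.3% of all. A match describes these letters only, and words may overlap each other.

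Class 4 semaphorins are transmembrane proteins that mostly engage B-type plexins. SEMA4B (chromosome 15, 90160604 to 90229679, plus strand) stood at 28.6, 32.9 and 31.9 TPM in PERK siRNA samples and at 58.1, 58.9 and 57.1 TPM in control siRNA samples. The groups were far apart, and SEMA4B fell 1.85-fold (log2 fold change -0.89, SE 0.04, adjusted p = 3.4e-17 by edgeR). SEMA4F stood at 17.2, 19.0 and 17.5 TPM with PERK siRNA and at 25.9, 24.5 and 23.9 TPM with control siRNA, a fall of smaller size (log2 fold change -0.46, SE 0.05, adjusted p = 1.9e-09). SEMA4D, a ligand of plexin B1 and of CD72 on lymphocytes, stood at 12.6, 12.8 and 11.8 TPM with PERK siRNA and at 14.1, 14.1 and 13.1 TPM with control siRNA. The call of SEMA4D was narrow: its log2 fold change of -0.14 (SE 0.05) had an adjusted p of 0.013 by edgeR and 0.081 by DESeq2, 0.085 without PERK siRNA sample 3 and 0.058 without control siRNA sample 1.

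SEMA4C, a ligand of plexin B2, rose slightly, at 28.5, 29.9 and 29.1 TPM with PERK siRNA and 27.0, 26.9 and 24.5 TPM with control siRNA (log2 fold change 0.17, SE 0.05, adjusted p = 0.0045 by edgeR). It was ligand number 4 by mean TPM with PERK siRNA and number 6 with control siRNA. SEMA4A was scarce, at 0.549, 0.647 and 0.651 TPM with PERK siRNA and 0.320, 0.341 and 0.277 TPM with control siRNA, with 11, 14 and 14 reads in PERK siRNA samples and 7, 7 and 6 reads in control siRNA samples. SEMA4A entered the test only through the PERK siRNA samples, which reached the minimum while no control siRNA sample did, so it had to differ and its values (log2 fold change 0.97, SE 0.39, adjusted p = 0.026 by edgeR) are a description. Its adjusted p was 0.077 without the filter and 0.13 by DESeq2, and 0.067 without PERK siRNA sample 2, 0.076 without PERK siRNA sample 3, and 0.062, 0.053 and 0.081 without control siRNA samples 1, 2 and 3. SEMA4G stood at 0.758, 0.664 and 0.409 TPM with PERK siRNA and at 0.329, 0.661 and 0.480 TPM with control siRNA and was not called (log2 fold change 0.32, SE 0.34, adjusted p = 0.41), and 22.3% of its annotated exon bases lie in exons of MRPL43. Summed over class 4, the level was 88.2 to 95.9 TPM with PERK siRNA and 119.3 to 125.7 TPM with control siRNA.

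SEMA5A, a transmembrane semaphorin with thrombospondin repeats (chromosome 5, 9035026 to 9546075, minus strand), stood at 36.7, 36.9 and 38.9 TPM in PERK siRNA samples and at 52.5, 53.0 and 52.5 TPM in control siRNA samples. It fell to 71.6% of the control level without overlap (log2 fold change -0.48, SE 0.03, adjusted p = 5.9e-15 by edgeR). SEMA5B had no reads in any sample. Class 6 semaphorins are transmembrane proteins that bind A-type plexins directly, and their sum was 35.1 to 36.6 TPM with PERK siRNA and 34.2 to 35.8 TPM with control siRNA, with overlapping ranges. Within the class, SEMA6C rose, at 11.4, 11.5 and 11.4 TPM with PERK siRNA and 8.17, 8.42 and 7.50 TPM with control siRNA (log2 fold change 0.52, SE 0.07, adjusted p = 4.0e-07). SEMA6B stood at 22.9, 21.2 and 23.0 TPM with PERK siRNA and at 25.0, 25.2 and 24.9 TPM with control siRNA. It was called lower (log2 fold change -0.16, SE 0.05, adjusted p = 0.011 by edgeR), but its adjusted p was 0.075 by DESeq2 and 0.086 without PERK siRNA sample 2.

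SEMA6A and SEMA6D were not called. SEMA6A stood at 0.686, 0.730 and 0.677 TPM with PERK siRNA and at 0.608, 0.425 and 0.461 TPM with control siRNA. Its groups did not overlap, but the adjusted p of its log2 fold change of 0.49 (SE 0.23) was 0.066 by edgeR, and 0.043 on uniquely placed reads and 0.037 without control siRNA sample 1. SEMA6D stood at 1.56, 1.63 and 1.51 TPM with PERK siRNA and at 1.59, 1.74 and 1.42 TPM with control siRNA, with overlapping groups (log2 fold change -0.0082, SE 0.15, adjusted p = 0.96).

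**Figure D3:**
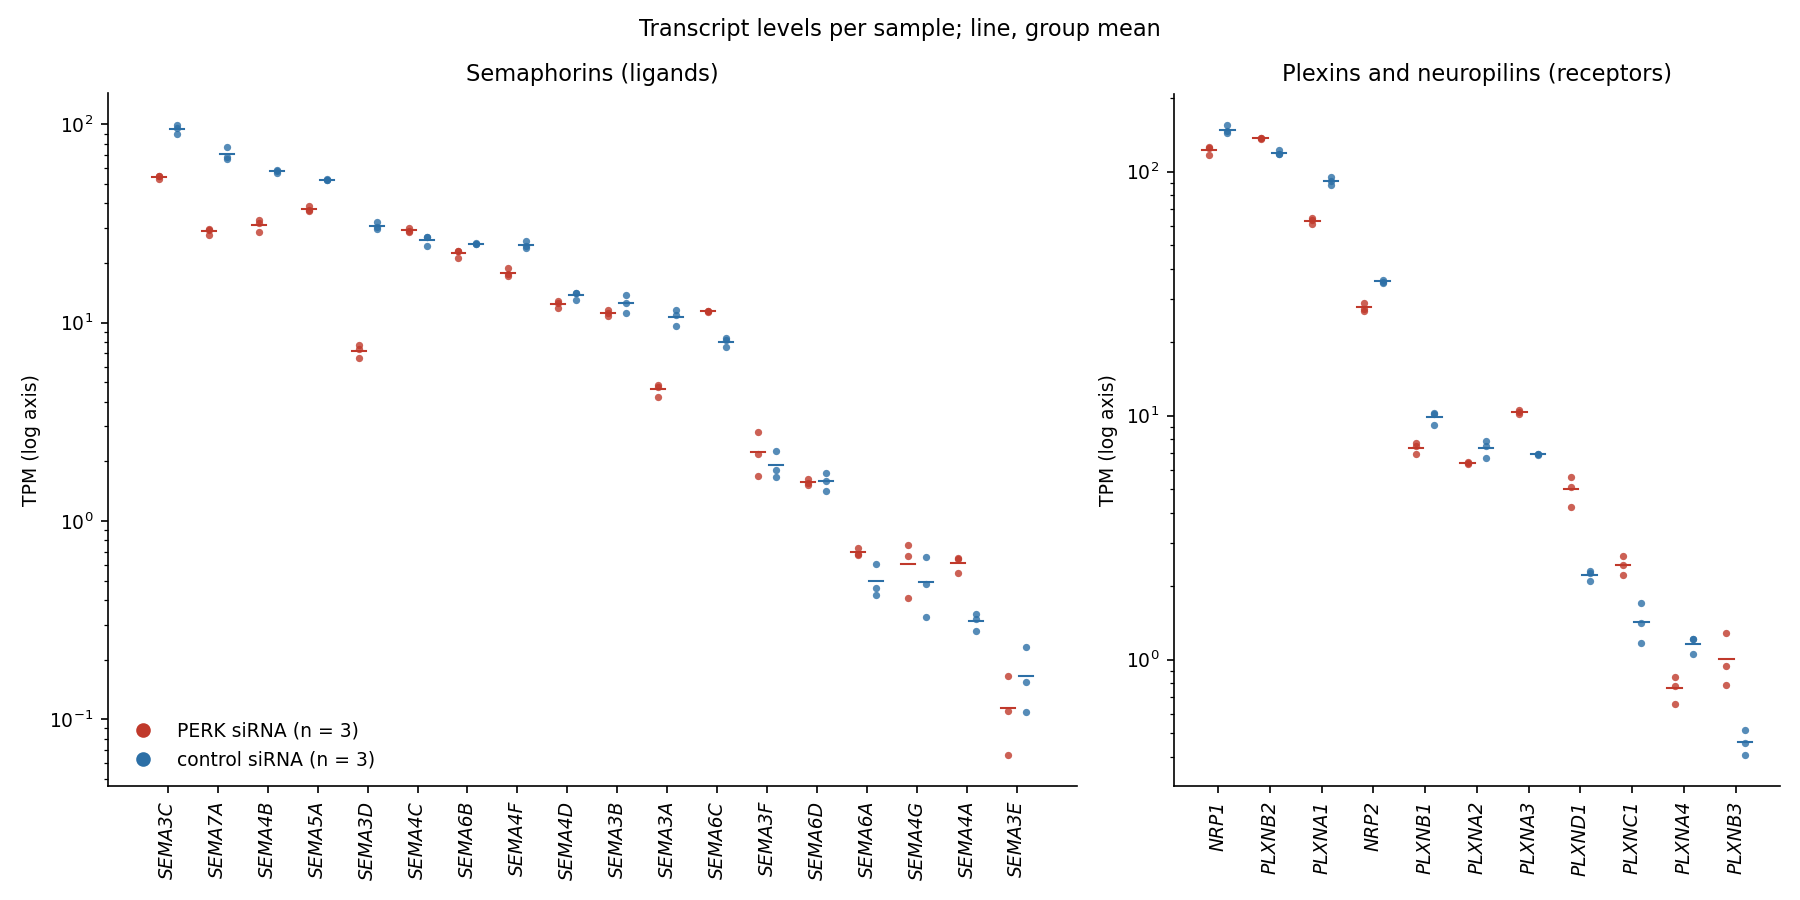
TPM per sample (y axis, log scale) of the 18 semaphorins with reads in every sample (left) and of the 11 plexins and neuropilins (right), with dots for the 3 PERK siRNA and the 3 control siRNA samples and lines for group means, ordered by the control siRNA mean. SEMA3D, SEMA7A and SEMA3A stand well below their control siRNA values, while PLXND1, PLXNB3 and PLXNC1 stand above theirs at a low level.

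Among the receptors, the neuropilins and the most abundant A-type plexin were lower in PERK siRNA samples. NRP1 (chromosome 10, 33177492 to 33336262, minus strand) stood at 126.6, 116.7 and 125.2 TPM with PERK siRNA and at 146.8, 155.2 and 143.3 TPM with control siRNA. It fell to 83.1% of the control level without overlap (log2 fold change -0.27, SE 0.03, adjusted p = 1.5e-06 by edgeR). NRP2 (chromosome 2, 205681990 to 205798133, plus strand), which binds SEMA3F and SEMA3C, stood at 27.4, 26.9 and 28.9 TPM with PERK siRNA and at 35.4, 36.1 and 34.9 TPM with control siRNA (log2 fold change -0.35, SE 0.03, adjusted p = 3.6e-10). Both neuropilins were lower in every PERK siRNA sample.

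A-type plexins are the signalling partners of neuropilins. PLXNA1 (chromosome 3, 126988594 to 127037392, plus strand) stood at 61.0, 63.4 and 64.4 TPM with PERK siRNA and at 91.2, 94.8 and 87.8 TPM with control siRNA. It fell 1.44-fold (log2 fold change -0.53, SE 0.03, adjusted p = 4.5e-16 by edgeR). PLXNA3 (chromosome X, 154458281 to 154477779, plus strand) went the other way, at 10.2, 10.5 and 10.3 TPM with PERK siRNA and 6.95, 6.97 and 6.87 TPM with control siRNA, 149.7% of the control level (log2 fold change 0.58, SE 0.05, adjusted p = 7.5e-11). The 2 other A-type plexins fell at low levels. PLXNA4 stood at 0.852, 0.655 and 0.782 TPM with PERK siRNA and at 1.05, 1.22 and 1.21 TPM with control siRNA (log2 fold change -0.60, SE 0.14, adjusted p = 0.00040). PLXNA2 stood at 6.41, 6.43 and 6.32 TPM with PERK siRNA and at 7.50, 7.86 and 6.67 TPM with control siRNA (log2 fold change -0.19, SE 0.06, adjusted p = 0.0072, which was 0.054 by DESeq2 and 0.056 without control siRNA sample 2). Summed over A-type plexins, the level was 78.4 to 81.9 TPM with PERK siRNA and 102.6 to 110.8 TPM with control siRNA.

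B-type plexins receive class 4 semaphorins. PLXNB2 (chromosome 22, 50274979 to 50307627, minus strand) stood at 135.9, 137.6 and 137.4 TPM in PERK siRNA samples and at 118.2, 122.2 and 118.0 TPM in control siRNA samples. It rose 1.15-fold without overlap (log2 fold change 0.20, SE 0.03, adjusted p = 2.8e-08 by edgeR). By mean TPM, PLXNB2 was receptor number 1 and NRP1 number 2 with PERK siRNA, and the order was the reverse with control siRNA. PLXNB1, the receptor of SEMA4D, stood at 6.95, 7.47 and 7.74 TPM with PERK siRNA and at 10.2, 10.3 and 9.12 TPM with control siRNA (log2 fold change -0.41, SE 0.07, adjusted p = 5.8e-06). PLXNB3 was scarce, at 0.939, 0.787 and 1.28 TPM with PERK siRNA and 0.456, 0.514 and 0.407 TPM with control siRNA, with 32, 29 and 47 reads with PERK siRNA and 17, 18 and 15 reads with control siRNA. It rose 2.19-fold (log2 fold change 1.13, SE 0.27, adjusted p = 0.00044), but its reads were 79.1% unique and 20.4% of its exon bases lie in exons of SRPK3, so its count is uncertain.

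PLXND1, the receptor of SEMA3E, had the largest rise among receptors. PLXND1 (chromosome 3, 129555175 to 129606818, minus strand) stood at 5.61, 5.11 and 4.23 TPM in PERK siRNA samples and at 2.27, 2.09 and 2.30 TPM in control siRNA samples. The means were 4.98 ± 0.695 and 2.22 ± 0.112 TPM (SD, n = 3 each). Its lowest PERK siRNA value was above its highest control siRNA value, and the rise was 2.25-fold (log2 fold change 1.17, SE 0.12, adjusted p = 5.7e-10 by edgeR). Setting some ligands beside receptors named for them above, the SEMA7A and PLXNC1 pair moved in opposite directions. SEMA4D, by its narrow call, and PLXNB1 both fell, and SEMA4C and PLXNB2 both rose. Of the other class 4 ligands, SEMA4B and SEMA4F fell, against the rise of PLXNB2. SEMA3C and SEMA3A fell, as did NRP1, NRP2 and PLXNA1. Not every gene of that last set did so, since PLXNA3 rose and SEMA3F was not called (log2 fold change 0.24). These are not all the known pairs of the family.

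Genes that work with the family were read from lists of co-receptors, signalling partners and processing enzymes. Of 9 tested co-receptors of 15, 6 rose and 2 fell, with a median log2 fold change of 0.77, where 34.4% of all tested genes rose and 35.0% fell. ITGB1, the β1 integrin chain that SEMA7A binds, averaged 260.5 TPM with PERK siRNA and 103.6 TPM with control siRNA (log2 fold change 1.34, adjusted p = 3.5e-27 by edgeR). L1CAM, an adhesion molecule that joins neuropilin 1 in SEMA3A reception (log2 fold change 1.03, adjusted p = 1.7e-23), and PTK7, a pseudokinase linked to plexin A1 in frog embryos (1.25, adjusted p = 5.4e-24), also rose. MET, a kinase that pairs with B-type plexins, averaged 77.2 TPM with PERK siRNA and 161.9 TPM with control siRNA, and fell by 1.06 on the log2 scale (adjusted p = 9.9e-24).

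Of 38 genes of cytoplasmic plexin signalling, 37 were tested, 20 rose (54.1%) and 12 fell (32.4%), beside 34.4% and 35.0% of all genes, with a median log2 fold change of 0.25. Among the most clearly called genes by edgeR, 3 that rose were RRAS2, a Ras-family GTPase (log2 fold change 1.78, adjusted p = 1.1e-22, 91.8% of reads unique), the scaffold IQGAP1 (1.10, adjusted p = 8.1e-26) and RAP1B, a substrate of the plexin GAP domain (0.67, adjusted p = 2.6e-19). Processing and shedding enzymes release or activate semaphorins. Of 7, 6 were tested, of which 3 fell and 1 rose, and their median was -0.40 on the log2 scale. That is 66.7% called in either direction, beside 69.5% of all genes. FURIN, the convertase that cleaves class 3 semaphorins, averaged 69.5 TPM with PERK siRNA and 187.7 TPM with control siRNA, and fell by 1.43 on the log2 scale (adjusted p = 6.5e-26). MMP14, which sheds SEMA4D, fell by 0.74 and ADAM10 by 0.75 on the log2 scale, while PCSK7 rose by 0.29 with 62.4% of its reads unique.

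**Figure D4:**
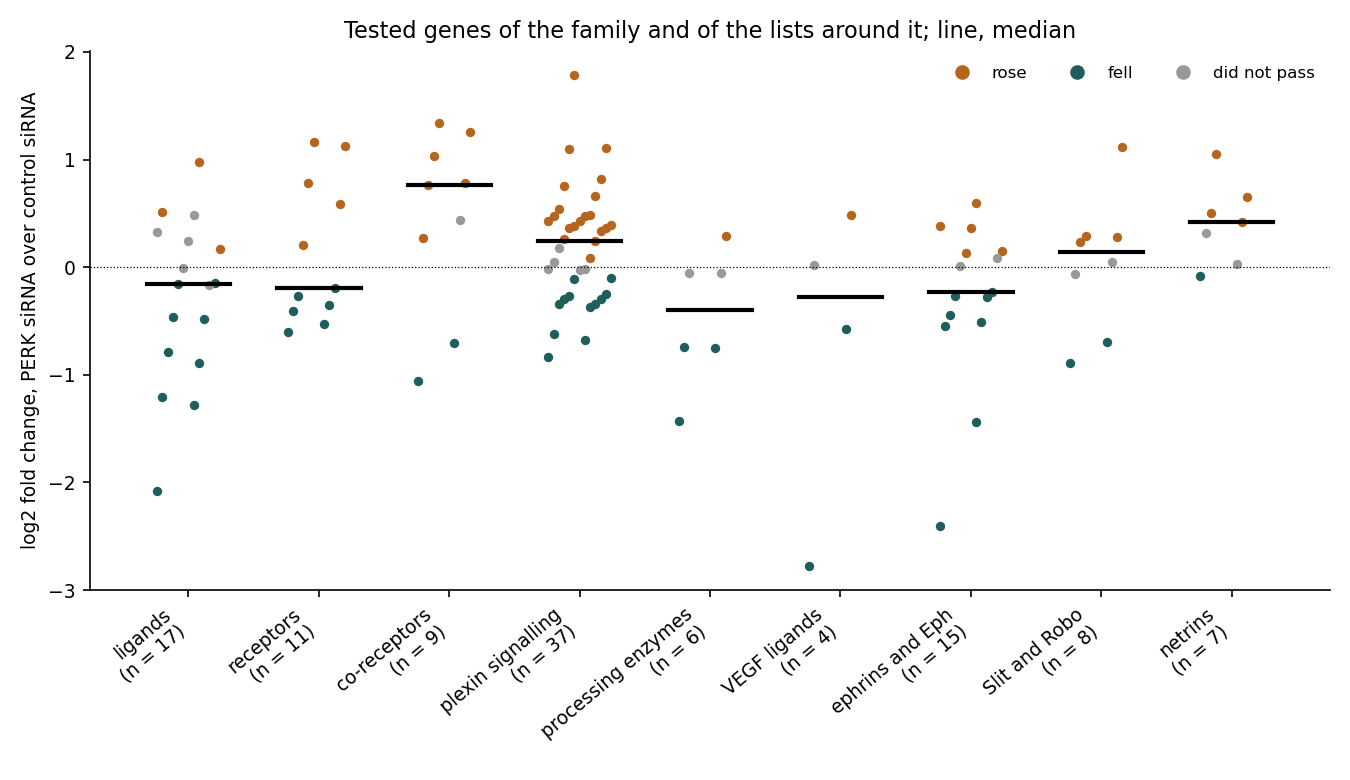
Log2 fold change of PERK siRNA over control siRNA (y axis) of each tested gene of the family and of 7 lists around it (x axis), coloured by the call at an adjusted p of 0.05, with a line for the median of each list. The medians run from -0.40 for processing enzymes to 0.77 for co-receptors, and ligands and receptors have medians of -0.16 and -0.19.

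VEGF ligands share the neuropilins. VEGFA, the main driver of vessel growth, averaged 13.4 TPM with PERK siRNA and 91.8 TPM with control siRNA and fell by 2.77 on the log2 scale, PGF fell by 0.57 and VEGFB rose by 0.49 on that scale, and VEGFC stood at 0.02 (adjusted p = 0.73 by edgeR), with 4 of 5 genes tested. Other guidance families were mixed. Of 15 tested ephrins and Eph receptors of 22, 5 rose and 8 fell (median log2 fold change -0.23), among them EPHB6 (-1.44), EFNB2 (-0.55), EPHA4 (0.37) and EPHA2 (-0.28). Of 8 tested Slit and Robo genes of 10, 4 rose and 2 fell (median 0.14), with SLIT3 at 1.11, SRGAP1 at 0.29, SLIT2 at 0.23 and ROBO4 at -0.89. Of 7 tested netrins and receptors of 14, 4 rose and 1 fell (median 0.42), with UNC5C at 1.05, NTNG2 at 0.66, NEO1 at 0.51 and NTN4 at 0.42. These counts stand beside 34.4% and 35.0% of all tested genes that rose and fell.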

How the data were processed

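RNA sequencing of 6 LX-2 samples was analysed from the deposited tables, 1 per sample, with 21533 genes each. The deposited columns, per the file headers, are read counts over exons (total and unique) and TPM. Per the submitters' processing notes, the build was hg38. Not given in the sources used here are the aligner, the counter, its strand setting and the annotation. The libraries were directional, per the labels' protocols.

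Groups came from the sample titles. Total exon reads were tested with edgeR's quasi-likelihood test (edgeR 4.0.16, R 4.3.3) with TMM factors, its default expression filter (minimum count 10) and robust dispersion, on 12973 of 16842 genes with a read. Benjamini-Hochberg adjustment ran over all tested genes, with a threshold of 0.05. Log2 fold changes are PERK siRNA over control siRNA, and SE is the size of the fold change over the square root of F. Levels are the deposited TPM, which divide by exon length and can be compared between genes. Alternatives were other scaling factors, other filters, DESeq2 1.42.0, limma-voom (limma 3.58.1), non-robust dispersion, a replicate block, stricter calls, unique reads and leaving out each sample.

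Every member of the family is named, as are EIF2AK3 and, from each list, at most 4 tested genes taken in order of adjusted p, 1 of which is not reported here. The members and lists were chosen with earlier results of these data known. The fit was tested on simulated data. Replicate numbers were not used to pair samples. Within groups, replicates differed by more than sampling noise (chi-square per degree of freedom 1.67 to 2.29, against 59.4 to 64.6 between groups), and all 6 samples were kept as separate libraries. Gene places came from GENCODE v29 (GRCh38), matched on gene identifier for all 31 genes. Words were searched in Python 3.11.15.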

Additional observations from a re-analysis of the deposited data

How the results depend on the processing

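Most calls on the family kept their direction and side of the threshold. Over other scaling factors, filters, tools, unique reads and a threshold of 0.01, 7 to 9 members rose and 12 to 15 fell, beside 8 and 15. In all, 3856 to 4648 genes rose and 4028 to 4786 fell in these settings, beside 4469 and 4545. A test against a 1.2-fold change, which asks for more than a difference from 0, left 5 rising and 11 falling members. Of the ligands, 1 rose and 7 fell by it, beside 2345 rising and 2344 falling of all 12973 tested genes. NRP1 (adjusted p = 0.45), PLXNB2, PLXNA2, SEMA4A, SEMA4C, SEMA4D and SEMA6B were not called by it. The median log2 fold change of receptors was -0.18 with upper-quartile factors and -0.26 to -0.15 with single samples left out, beside -0.19. That of ligands was -0.18 to -0.12 with single samples left out, when 7 to 8 members rose and 14 to 15 fell. SEMA3B was called lower without control siRNA sample 2 (-0.24, adjusted p = 0.020).

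Values near 0 changed sign without being called, and the cause was not tested. SEMA6D, at -0.0082, was 0.0072 with upper-quartile factors, and with single samples left out it ranged between -0.080 and 0.057. VEGFC (0.02) ranged between -0.045 and 0.052 with single samples left out. VIM, PDGFRB and TUBB3 were not called by the 1.2-fold test. The pathway and marker genes were put through these settings after seeing the data, except COL1A1, SPARC, TIMP1 and THY1, which were not.

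Same-numbered samples did not deviate together (correlations of 0.0077, -0.022 and -0.018), so no pairing by number was detected. Samples could still have been handled in pairs without a shared deviation, and the labels do not say. With the replicate block, 8 members rose and 15 fell, 4460 genes rose and 4543 fell in all, and EIF2AK3 was at -1.42. Depth limits SEMA4A, SEMA4G, SEMA6A, PLXNB3, SEMA3E and SEMA3G, which had few reads.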
